A study of Mus musculus with 4 samples.

Results

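The genes described here encode the core histones, the proteins that DNA is wound around in chromatin, and their variants. They were taken by name from the platform annotation, as every array feature whose gene symbol begins with H2ac, H2bc, H3c or H4c (the replication-dependent genes of histones H2A, H2B, H3 and H4) or with H2az, H2ax, H3f or Macroh2a (the variants H2A.Z, H2A.X, H3.3 and macroH2A). The rule found 43 of 33709 gene features. Of these, 41 carried 1 symbol and stood for 32 of 19087 genes, 25 replication-dependent and 7 variant, and 2 carried several symbols and are given without a gene name. In the db/db group, splenic CD4+CD25- T lymphocytes came from C57BL/6 mice homozygous for the db mutation of the leptin receptor. In the db/+ group, the same cells came from C57BL/6 mice with a functional copy of that receptor gene, called wild type in the labels. Cells of both groups had been stimulated for 12 h with anti-CD3 and anti-CD28, antibodies that mimic antigen and costimulation. Each group held 2 pools of 3 mice, each pool was read on 1 array, and the labels call the db/db phenotype leptin-deficient although the db mutation affects the receptor.

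Replication-dependent histone genes are transcribed in S phase to package newly made DNA. Their transcripts have no introns and end in a stem-loop in place of a poly(A) tail. Variant histones come from genes that are mostly expressed throughout the cell cycle, and most, not all, of these genes have introns and only polyadenylated transcripts. Some variant histones replace the canonical histones at places such as promoters or silent chromatin. The amplification kit named in the labels primes on the poly(A) tail, and how much of each replication-dependent transcript it copied was not tested. The replication-dependent genes of a class are also nearly alike in coding sequence, and a feature of 1 copy can pick up another, so each value belongs to a feature and only by annotation to a gene.

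The stretches before the start sites of 6 members are shown because they hold the sequence elements by which histone promoters are known and because the levels of these members, given further on, did not move alike. Stretches are from RefSeq (GRCm38.p6), 5′ to 3′ on the gene's strand and ending at the base before the annotated start. Capitals mark the CCAAT box (CCAAT, or ATTGG on the other strand), the TATA box (TATAAA or TTTATA) and the octamer (ATTTGCAT or ATGCAAAT), the binding element of OCT1 in H2B promoters. The H2ac10 stretch is chr13:23533725-23533874 on the plus strand and the H2bc14 stretch chr13:21721894-21722043 on the plus strand. The H2ac15 stretch is chr13:21753913-21754062, the H2az2 stretch chr11:6444444-6444593 and the H3f3b stretch chr11:116024505-116024654, all on the minus strand. The H2ac20 stretch, chr3:96220881-96221071 on the minus strand, is the whole interval of 191 bases between H2ac20 and its neighbour H2bc21.
H2ac10: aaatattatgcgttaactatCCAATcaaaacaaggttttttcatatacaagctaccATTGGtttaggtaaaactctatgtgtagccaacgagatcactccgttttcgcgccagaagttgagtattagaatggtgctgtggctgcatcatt
H2ac15: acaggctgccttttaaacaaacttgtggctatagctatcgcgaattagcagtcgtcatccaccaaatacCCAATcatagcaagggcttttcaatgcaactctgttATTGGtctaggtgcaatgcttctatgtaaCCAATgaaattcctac
H2ac20: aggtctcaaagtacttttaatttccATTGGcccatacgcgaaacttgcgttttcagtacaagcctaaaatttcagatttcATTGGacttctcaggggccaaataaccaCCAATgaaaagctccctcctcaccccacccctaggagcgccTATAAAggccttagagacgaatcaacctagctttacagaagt
H2bc14: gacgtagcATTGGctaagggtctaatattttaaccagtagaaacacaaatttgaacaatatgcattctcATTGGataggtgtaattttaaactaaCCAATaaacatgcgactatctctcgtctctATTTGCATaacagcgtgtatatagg
H2az2: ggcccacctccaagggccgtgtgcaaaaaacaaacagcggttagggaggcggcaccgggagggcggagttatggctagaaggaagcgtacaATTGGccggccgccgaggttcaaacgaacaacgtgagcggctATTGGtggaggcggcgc
H3f3b: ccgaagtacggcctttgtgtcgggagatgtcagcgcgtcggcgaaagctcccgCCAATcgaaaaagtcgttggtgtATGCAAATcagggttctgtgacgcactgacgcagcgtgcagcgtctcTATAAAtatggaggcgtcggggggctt

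Of the 32 genes, 27 had a promoter window in the RefSeq table, 21 replication-dependent and 6 variant. In the 250 bases before the start, both strands read, a CCAAT box was found in 18 of 21 replication-dependent and 4 of 6 variant windows, against 34.2% of the windows of 27025 genes. All 9 H2A and all 6 H2B windows held at least 1, as did 1 of 2 H3 and 2 of 4 H4 windows. The octamer was found in 5 of 6 H2B and 5 of 9 H2A windows, in none of the H3 and H4 windows, in 1 of 6 variant windows, that of H3f3b, and in 1.59% of all windows. The letters of the TATA box were found in 12 of 21 replication-dependent windows, in 1 of 6 variant windows, again that of H3f3b, and in 12.9% of all windows. No position was required of them. H2ac1, H2ac4, H2ac6, H2ac20, H3c4 and H4c4 had a match that began between bases -42 and -32. In H2bc1, H2ac8, H2bc12, H2bc22, H4c6 and H4c9 the only match began at -94 or farther from the start. The windows of Macroh2a1, Macroh2a2 and H3c14 held none of these letters. Windows of neighbouring genes can overlap, as those of H2ac1 and H2bc1 do, and their matches are then not separate. A window can also reach into a neighbouring gene. The H2ac20 octamer begins at base -200, beyond the printed interval of 191 bases, and so lies within the annotated H2bc21.

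**Figure D1:**
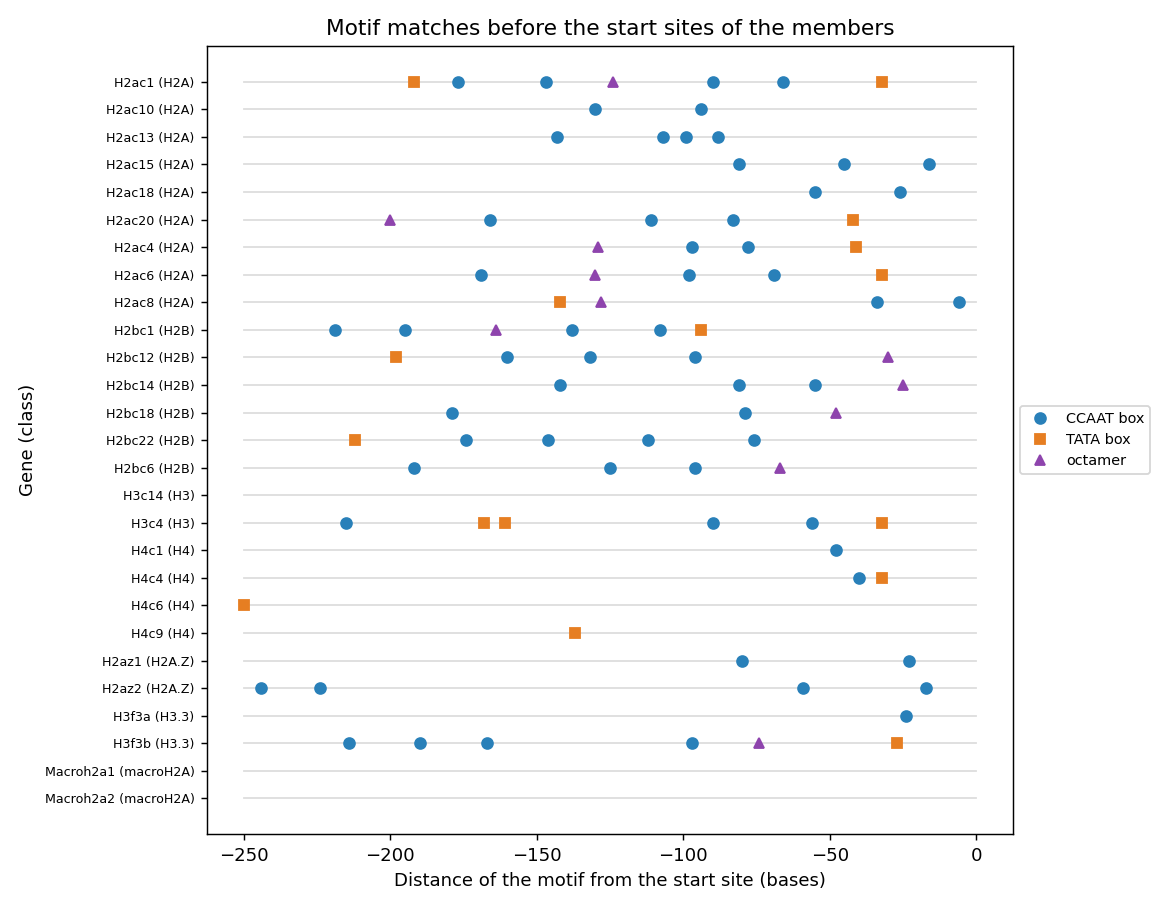
Positions of the CCAAT box, TATA box and octamer in the 250 bases before the start site of the 27 members with a RefSeq window, by gene and class; each point is the first base of a match on either strand. CCAAT boxes stand in all 9 H2A and all 6 H2B windows, and the octamer is seen in H2A and H2B windows and in that of H3f3b alone.

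Intensities are given below on the log2 scale after background correction and quantile normalization, and a log2 fold change is db/db minus db/+ on that scale. A feature was tested in 2 fits with limma, a linear model that pools the spread over features, with Benjamini-Hochberg adjustment and a threshold of 0.05. The first test took all 33709 gene features and the second the 25467 outside stretches of the arrays where neighbouring spots departed between arrays and were taken as misread. Where 2 adjusted p are given, they come from these fits in that order. The level of 7.55, the median over gene features, was taken as background, because the tables mark no detection. A gene with several features is given by the brightest outside misread stretches, for core histone members with the other features beside it. Genes of the other lists are given by that 1 feature alone, or by the brightest where all lie in such stretches. The member features reached a raw intensity of at most 40556, below the scanner maximum of 65535. Of these, 39 of 43 lay above background in at least 1 pool, beside 18098 of all 33709 gene features. The T cell markers Cd3e, Cd3g, Cd2, Cd28 and Cd4 lay above background in all 4 pools. Cd4 was the dimmest of these, at 9.94 and 9.99 in db/db and 9.67 and 9.98 in db/+. The CD8 genes read higher than Cd4 in every pool. Cd8a read 13.32 and 13.27 in db/db and 11.54 and 11.99 in db/+, and Cd8b1 14.07 and 14.08 against 13.06 and 13.38. The share of CD8 cells in the pools was not tested.

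No member was called in the first fit, in which 0.997% of all gene features were, 0.578% higher and 0.418% lower. At an unadjusted p below 0.05, 7 of the 32 genes were higher and 1 was lower in db/db, against 13.6% of all gene features higher and 5.94% lower. Outside misread stretches, 3 of 28 genes were called, all higher in db/db, where 8.2% of features were called, 6.69% higher and 1.51% lower. At an unadjusted p below 0.05, 18.8% of the features outside misread stretches were higher and 6.42% lower. They were H2ac15, H2bc21 and H2az2, and 1 of the 2 features of H2ac10 was called higher as well. Both db/db pools lay above both db/+ pools in 12 of 32 genes, against 31.2% of gene features, and below them in 2, against 21.9%. Outside misread stretches these counts were 12 and 1 of 28 genes, against 35.1% and 19.9% of features. These shares are close to the background for the rises and below it for the falls, and no test was made of the list. Leaving out any one of the 4 pools left no member and no other gene feature called in either fit, so the count of 0 says nothing about the members.

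**Figure D2:**
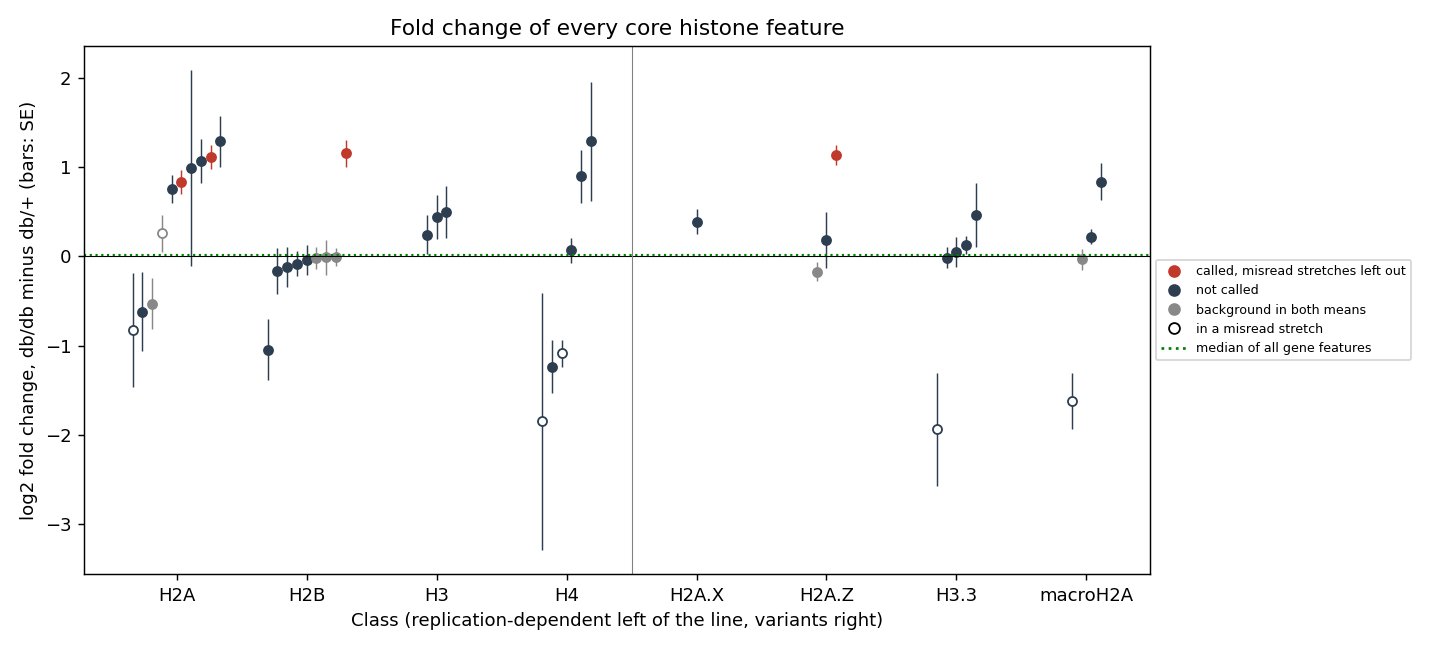
log2 fold change (db/db minus db/+) of the 41 core histone features with 1 symbol, by class, with the standard error of the limma fit over all gene features as bars; the dotted line is the median of all gene features, 0.017. Features of H2A outside misread stretches lie mostly above 0, those of H2B lie close to 0 except H2bc21 and 1 feature of H2bc12, and most of the open points, in misread stretches, lie below 0.

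Among the H2A genes, H2ac15 read 12.51 and 12.33 in db/db pools 1 and 2, against 11.48 and 11.69 in db/+ pools 1 and 2. Both db/db pools were higher than both db/+ pools, by a mean of 0.84 ± 0.13 (SE of the difference, as for all values after ±, with n = 2 pools a group), or 1.78-fold (adjusted p = 0.0954 and 0.0360). Outside misread stretches with median scaling in place of quantile normalization the call was lost (adjusted p = 0.213 in limma). H2ac10 was read by 2 features of 1 transcript, and these differed. The brighter read 13.14 and 14.10 in db/db and 13.99 and 11.27 in db/+, so the groups overlapped (log2 fold change 0.99 ± 1.10; adjusted p = 0.676 and 0.610), and without db/+ pool 2 its log2 fold change was -0.37. The other read 13.12 and 13.01 in db/db and 11.82 and 12.08 in db/+, a separation of 1.11 ± 0.13 or 2.16-fold (adjusted p = 0.0726 and 0.0239). Db/+ pool 1 differed by over 2 log2 units between these features, while both db/db pools and db/+ pool 2 differed by less.

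H2ac13 read 12.61 and 12.38 in db/db against 10.87 and 11.55 in db/+. The db/db pools were both higher, but the db/+ pools lay far enough apart that the difference of 1.29 ± 0.29 did not pass (adjusted p = 0.144 and 0.0563). H2ac20 read 13.40 and 13.74 in db/db and 12.85 and 12.77 in db/+, a difference of 0.76 ± 0.15 with no overlap (adjusted p = 0.128 and 0.0536). H2ac1, which encodes a testis H2A in mouse, read 14.31 and 13.97 in db/db and 12.82 and 13.33 in db/+, a difference of 1.06 ± 0.25 with no overlap (adjusted p = 0.153 and 0.0622). Whether this feature also reads other H2A copies was not tested. H2ac4 stood near background, at 7.73 and 7.59 in db/db and 7.71 and 8.84 in db/+ (adjusted p = 0.531 and 0.422), and H2ac6 and H2ac8 were at background in both group means. H2ac18 had its only feature of its own in a misread stretch (8.44 and 10.11 in db/db, 10.07 and 10.13 in db/+; adjusted p = 0.558). Over all 9 H2A genes the median log2 fold change was 0.76, with 4 genes higher and 1 lower in both db/db pools than in both db/+ pools, beside 31.2% and 21.9% of all gene features.

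The H2B genes showed another picture. Of 8 genes, 7 had a log2 fold change between -0.16 and -0.0069 and overlapping groups, and the class median was -0.031. H2bc14 read 12.12 and 11.85 in db/db and 11.99 and 12.15 in db/+, a difference of -0.082 ± 0.14 (adjusted p = 0.799 and 0.787). H2bc4 read 10.18 and 9.87 in db/db and 9.91 and 10.48 in db/+ (adjusted p = 0.776 and 0.741). H2bc1, the testis H2B of the mouse and neighbour of H2ac1, read 11.26 and 11.05 in db/db and 11.03 and 11.53 in db/+ (adjusted p = 0.804 and 0.781), with no separation where the H2ac1 feature had one. H2bc6, H2bc18 and H2bc22 were at background in both group means. H2bc12 had 2 features, of which the brighter by the mean of 4 arrays read 12.12 and 12.00 in db/db and 11.92 and 12.28 in db/+ (adjusted p = 0.913 and 0.907). Its other feature read 11.13 and 11.38 in db/db and 11.88 and 12.73 in db/+, a difference of -1.04 ± 0.35 (adjusted p = 0.247 and 0.125). That feature lay on a scan line where up to 4.14% of spots departed between arrays, just inside the limit of 5% for keeping a line.

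H2bc21 was the exception in its class. It read 10.89 and 10.86 in db/db, against 9.55 and 9.89 in db/+, so the db/db pools were nearly equal and both above the db/+ pools. The difference was 1.15 ± 0.15, a 2.22-fold higher level in db/db (adjusted p = 0.0786 and 0.0271). In human cells this gene is known to give polyadenylated transcripts as well, unlike most genes of its class. Its neighbour across the interval printed above, H2ac20, was higher in both db/db pools as well, without passing the threshold.

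**Figure D3:**
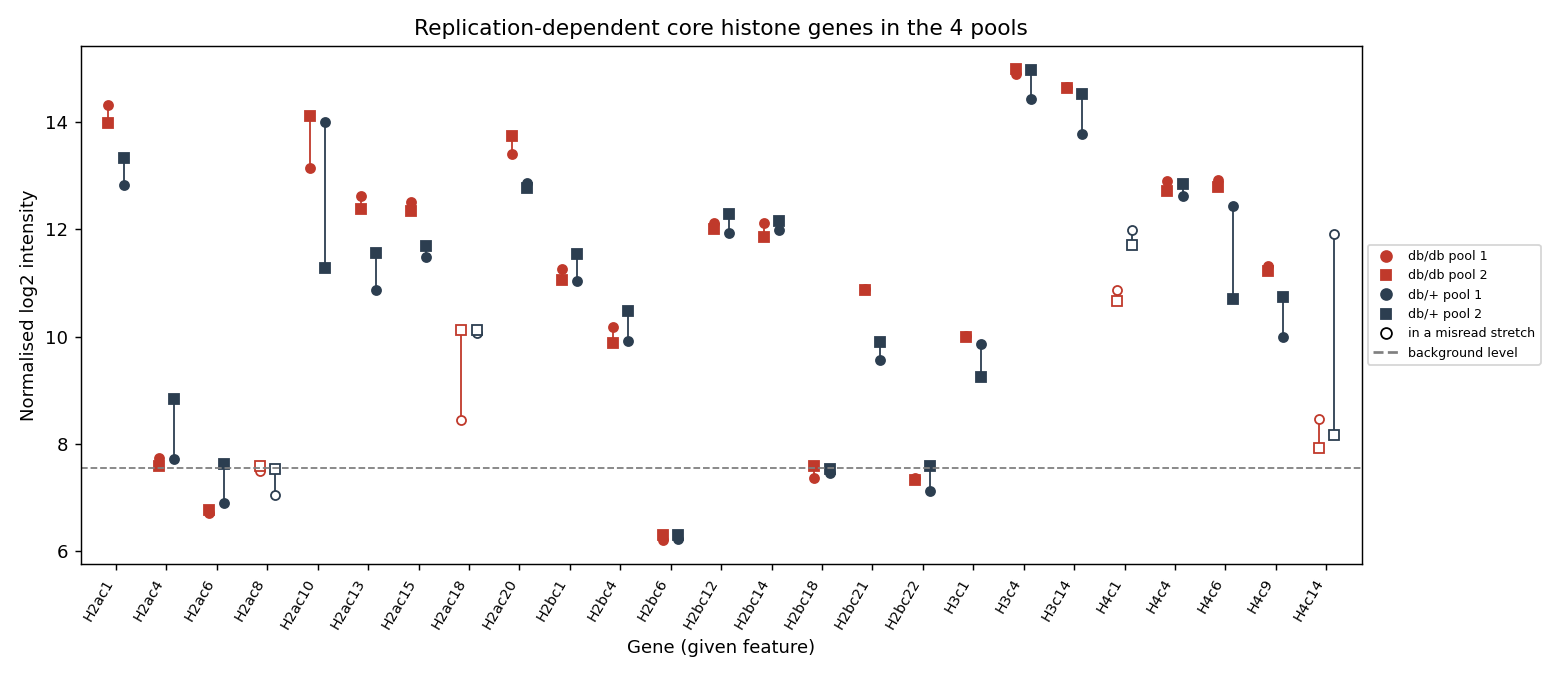
Normalised log2 intensity of the given feature of the 25 replication-dependent genes in each pool, db/db left and db/+ right for each gene; circles are pool 1, squares pool 2, open symbols lie in misread stretches and the dashed line is the background level of 7.55. H2ac15, H2ac13, H2ac20, H2ac1 and H2bc21 show db/db above db/+ without overlap, while H2bc1, H2bc4, H2bc12 and H2bc14 overlap.

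All 3 H3 genes had a positive log2 fold change and none was called. H3c14, a gene of the chromosome 3 cluster, read 14.65 and 14.63 in db/db and 13.78 and 14.51 in db/+, a difference of 0.50 ± 0.29 (adjusted p = 0.458 and 0.331). H3c1 read 10.01 and 9.99 in db/db and 9.86 and 9.25 in db/+ (0.44 ± 0.25; adjusted p = 0.446 and 0.320). H3c4 read 14.89 and 14.97 in db/db and 14.42 and 14.95 in db/+ (0.24 ± 0.22; adjusted p = 0.608 and 0.540). In all 3 the db/db pools lay close together and the db/+ pools apart, so the difference came mostly from 1 db/+ pool, pool 1 for H3c14 and H3c4 and pool 2 for H3c1.

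None of the 5 H4 genes was called over all features, nor any of the 3 with a feature outside misread stretches. H4c9 read 11.31 and 11.22 in db/db and 9.99 and 10.74 in db/+, a difference of 0.90 ± 0.30 (adjusted p = 0.247 and 0.127). H4c6 read 12.92 and 12.79 in db/db and 12.44 and 10.70 in db/+, where the difference of 1.29 ± 0.67 came mostly from db/+ pool 2 (adjusted p = 0.418 and 0.275). Up to 4.51% of the spots on its scan line departed between arrays. H4c4 read 12.89 and 12.70 in db/db and 12.61 and 12.84 in db/+ on its brighter feature, an overlap (0.067 ± 0.14; adjusted p = 0.831 and 0.825). Its other feature read 9.90 and 9.28 in db/db and 10.61 and 11.04 in db/+, lower in both db/db pools by 1.24 on the log2 scale (log2 fold change -1.24 ± 0.30; adjusted p = 0.161 and 0.0650).

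The remaining H4 genes lay in misread stretches. H4c1 read 10.86 and 10.66 in db/db and 11.98 and 11.71 in db/+, a difference of -1.09 ± 0.15 (adjusted p = 0.0838 over all features). It shared a scan line with a feature of Macroh2a1 that differed by -1.62 ± 0.31. Over the 181 gene features of that line the median log2 fold change was -0.21, and up to 7.89% of its spots departed between arrays. When a stretch was called misread only from differences between pools of 1 genotype, the line stayed in and both features were called lower (adjusted p = 0.0299 for H4c1 and 0.0460 for Macroh2a1). H4c14 read 8.47 and 7.92 in db/db and 11.92 and 8.16 in db/+, with db/+ pool 1 alone high (adjusted p = 0.559 over all features).

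Among the variants, H2az2, which encodes the H2A.Z.2 form of the variant placed at promoters, separated the groups. It read 13.98 and 13.99 in db/db, against 12.75 and 12.95 in db/+. The db/db pools were nearly equal and both above the db/+ pools, a difference of 1.13 ± 0.11 or 2.19-fold (adjusted p = 0.0617 and 0.0201). H2az1, the gene of the other H2A.Z form, read 14.41 and 14.94 in db/db and 14.19 and 14.79 in db/+, so the pools of a group differed by more than the groups (0.18 ± 0.31; adjusted p = 0.795 and 0.765). A second H2az1 feature, matched to another transcript, was at background in every pool. The difference between the 2 H2A.Z genes was not tested.

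H2ax, whose protein is phosphorylated around DNA breaks, read 13.23 and 12.94 in db/db and 12.68 and 12.71 in db/+. Both db/db pools were higher, by 0.39 ± 0.14 (adjusted p = 0.268 and 0.165). H3f3a and H3f3b encode the same protein, H3.3, which is deposited outside replication. H3f3b read 14.81 and 14.64 in db/db and 14.68 and 14.80 in db/+ on one feature (-0.015 ± 0.11; adjusted p = 0.960 and 0.961) and 14.69 and 14.76 in db/db and 13.80 and 14.72 in db/+ on the other (0.46 ± 0.36; adjusted p = 0.557 and 0.462). H3f3a read 14.33 and 14.72 in db/db and 14.44 and 14.51 in db/+ on its brightest feature (0.050 ± 0.17; adjusted p = 0.904 and 0.896). A second feature of the same transcript differed by 0.12 ± 0.10. The third, in a misread stretch, read 11.70 and 11.73 in db/db and 14.48 and 12.83 in db/+, a difference of -1.94 ± 0.63 that the other 2 did not show (adjusted p = 0.243 over all features).

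Macroh2a1 encodes a large H2A variant of silent chromatin. Its brightest feature read 13.87 and 13.86 in db/db and 13.65 and 13.64 in db/+, a small difference of 0.22 ± 0.082 with no overlap (adjusted p = 0.286 and 0.237). A second feature, matched to another transcript record, read 9.93 and 10.09 in db/db and 9.41 and 8.93 in db/+, a difference of 0.84 ± 0.21 (adjusted p = 0.171 and 0.0747). The third, on the scan line of H4c1, went the other way, as given there. Macroh2a2, the gene of the other macroH2A, was at background in all 4 pools, at 6.02 and 6.02 in db/db and 6.16 and 5.94 in db/+.

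**Figure D4:**
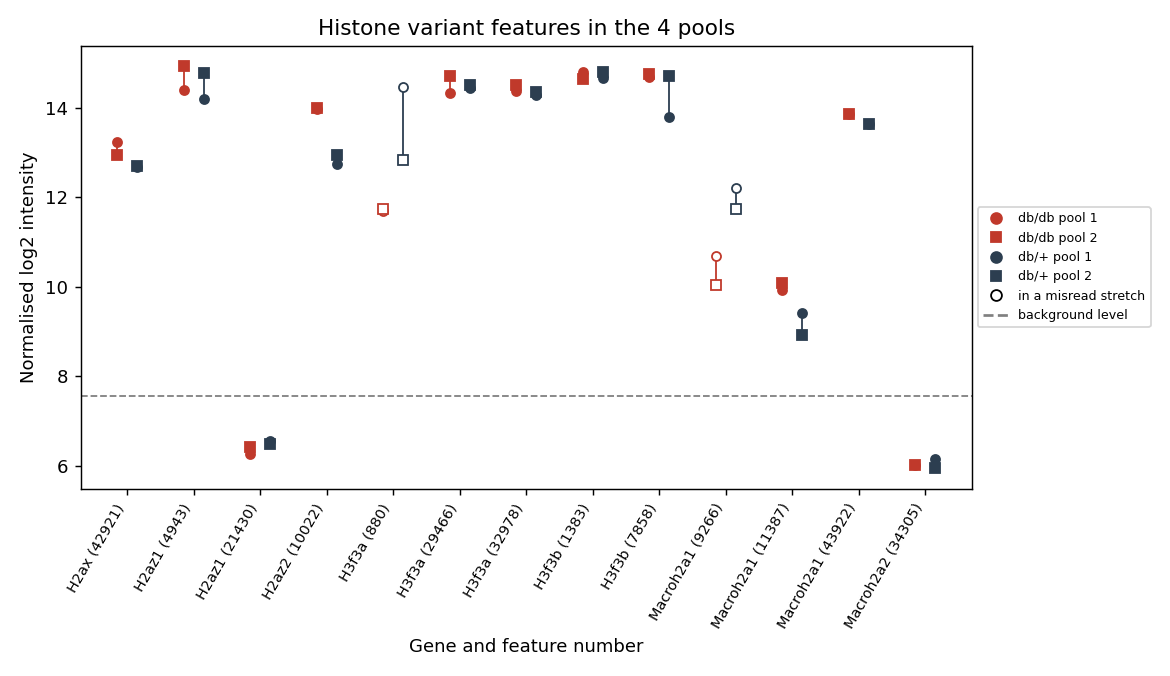
Normalised log2 intensity of all 13 histone variant features in each pool, with feature numbers in brackets, db/db left and db/+ right; circles are pool 1, squares pool 2, open symbols lie in misread stretches and the dashed line is the background level of 7.55. H2az2 shows db/db at 13.98 and 13.99 above db/+ at 12.75 and 12.95, H3f3b and H2az1 overlap, and the 2 open features of H3f3a and Macroh2a1 go against the other features of those genes.

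Replication-dependent genes and variants were then set side by side. The median over the 25 replication-dependent genes was 11.26 and 11.05 in db/db pools 1 and 2, against 11.03 and 10.74 in db/+ pools 1 and 2. Over the 7 variant genes it was 13.98 and 13.99 in db/db and 13.65 and 13.64 in db/+. The median log2 fold change was 0.067 in replication-dependent genes, with 13 positive and 12 negative, and 0.18 in variants, with 5 positive and 2 negative, beside 0.017 over all gene features. The difference of these median fold changes was -0.11, and it was 0.061 outside misread stretches and -0.18 with cyclic loess scaling. The difference of the median levels of the 2 kinds had a spread of 0.18 (SD) between pools of a group. That is a spread of single pools in levels, not of a difference of fold changes. The replication-dependent median itself was 0.24 outside misread stretches, above that of the variants, and -0.0013 with cyclic loess, so the order of the 2 kinds was not settled. By position, the 19 replication-dependent genes on chromosome 13 had a median of 0.067 and the 6 on chromosome 3 a median of 0.24. Outside misread stretches the median was 0.067 over 17 genes on chromosome 13 and 0.63 over 4 on chromosome 3. The 2 features with several symbols lay below background in both group means, at log2 fold changes of -0.30 and -1.13, and the second was called lower outside misread stretches (adjusted p = 0.0183).

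In a list of transcription and 3′ processing of histone transcripts, 1 of 31 measured genes was called higher over all features and 2 of 27 outside misread stretches, and none lower, with a median log2 fold change of 0.0055. The share outside misread stretches is close to the 6.69% of all features called higher there. The 2 were the cyclins Ccne2 (1.94; adjusted p = 0.0503 and 0.0156) and Ccne1 (1.77; adjusted p = 0.0878 and 0.0285), whose kinase starts S phase and histone transcription. The first was Zfp473, a zinc finger protein of the processing complex, in a misread stretch (1.45; adjusted p = 0.0451 over all features). Slbp, which binds the stem-loop of histone transcripts, read 14.34 and 13.83 in db/db and 13.31 and 13.64 in db/+ (adjusted p = 0.316 and 0.185).

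In the list of histone chaperones and deposition factors none of 37 passed over all features, where 0.997% of gene features did. Outside misread stretches 4 of 32 were higher and 1 lower, beside 6.69% and 1.51% of all features there. Higher were Chaf1a, a subunit of the assembly factor that acts at replication forks (1.65; adjusted p = 0.0676 and 0.0206), Asf1b, which hands over H3 and H4 (1.36; adjusted p = 0.0810 and 0.0272), Tonsl, which binds new H4 behind the fork (1.44; adjusted p = 0.0613 and 0.0181), and Hjurp, the chaperone of the centromeric H3 variant (1.18; adjusted p = 0.0567 and 0.0181). Ruvbl2, an ATPase of the complexes that place H2A.Z, was lower (-0.87; adjusted p = 0.104 and 0.0403). Among the factors of H3.3, Daxx differed by 0.60 and Atrx by 0.76 without passing (adjusted p = 0.0530 for each outside misread stretches), and Hira by 0.056 (adjusted p = 0.922 and 0.915). The list median was -0.065, and 0.048 outside misread stretches.

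The DNA replication list had a median of 0.90. Over all features 2 of 39 genes were called higher, beside 0.578% of gene features. Outside misread stretches 16 of 31 were, beside 6.69% of features there, and none was called lower in either fit. Cdc45 (1.90; adjusted p = 0.0409 and 0.0139), Gins2 (1.89; 0.0445 and 0.0146) and Rfc3, a subunit of the clamp loader (1.02; 0.0620 and 0.0206), had the smallest p over all features. The linker histone genes, which bind outside the nucleosome core, were lower in 5 of 9 and higher in none outside misread stretches. Of all features there, 1.51% were called lower and 6.69% higher. H1f4 differed by -1.67 (adjusted p = 0.0676 and 0.0206) and H1f8 by -1.35 (adjusted p = 0.0743 and 0.0237). H1f3 read 7.14 and 7.69 in db/db and 10.53 and 11.43 in db/+ (adjusted p = 0.0695 and 0.0203).

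Markers of other cells were read in the same comparison, and within some lists they went opposite ways. Their counts below stand beside 6.69% of all features called higher and 1.51% called lower outside misread stretches. Of neutrophil markers 6 of 9 were called higher in db/db outside misread stretches, with a summed intensity over 11 markers of 65662 and 69930 in db/db and 7695 and 21441 in db/+. Elane, in a misread stretch, and Mpo went the other way without passing (log2 fold changes -1.52 and -0.86). Of B cell markers 3 of 7 were higher (18505 and 13057 in db/db, 7851 and 11350 in db/+), with Pax5 and Blk at background. Both CD8 genes were higher (27407 and 27263 in db/db, 11504 and 14691 in db/+), and 1 of 4 macrophage and monocyte markers was. The summed intensity over the 6 measured macrophage and monocyte markers was 89751 and 79251 in db/db and 64491 and 67041 in db/+. Of these, Mrc1 and Fcgr1 were at background, and the brightest, Ly6c2, overlapped between the groups with a log2 fold change of 0.011. None of 4 NK markers (24121 and 23435 in db/db, 13344 and 21043 in db/+) and none of 4 erythroid markers passed. The NK median log2 fold change was -0.070, with Klrd1 (0.89) and Nkg7 (0.29) positive and Klrb1c (-0.86) and Ncr1 (-0.43) negative. The summed intensity over the 7 measured erythroid markers was 20806 and 19067 in db/db and 7681 and 16232 in db/+. Their median log2 fold change was -0.26, and 0.66 outside misread stretches. Hba-a1, Hbb-bt and Alas2 were positive. Epor was negative, as were Klf1, Slc4a1 and Hba-a2 in misread stretches. The 8 T cell markers summed to 81773 and 81834 in db/db and 107125 and 105534 in db/+, and the 6 outside misread stretches to 54215 and 58338 in db/db and 56945 and 58741 in db/+, where the groups overlapped. Cd5, in a misread stretch, was lower over all features (log2 fold change -3.82), and with those stretches left out Il7r was higher (1.41) and Il2ra lower (-0.67). The part of these cells in the histone values was not tested, and a change in the share of dividing cells cannot be told apart from one in RNA per cell.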

How the data were processed

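Gene expression was measured on 4 one-colour arrays, 2 db/db and 2 db/+ pools, grouped by the genotype in the labels. The raw table gives the median foreground intensity per feature on a linear scale, per the file headers. The authors' deposited value table holds log2 values, which equal the raw intensities, logged and then quantile normalized, to within 5.00e-09. The submitters' processing notes name limma with no further steps. The tables name no genes. Each feature's row was computed from its number in the platform annotation by a grid layout inferred from the data in an earlier analysis. There, 2293 features that repeat 218 accessions deviated from their accession's median by 0.138 on the log2 scale (median absolute deviation), and by 1.10 if row numbers were read as feature numbers.

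Intensities went through normexp (offset 50), log2 and quantile normalization and were tested per feature (limma 3.58.1 in R 4.3.3), two-sided, with Benjamini-Hochberg adjustment and a threshold of 0.05. A scan line of 266 spots was called misread where over 5% of its spots on an array departed by more than 2 log2 units from the median over the other arrays, as in 40 of 170 lines, and likewise any window of 15 spots holding 3 or more of them. Because the rule selects on spread between arrays, the fit outside these stretches sees less spread than the arrays had. Members and lists were chosen with earlier results of these data known. Named members were all variants, all called genes and, per class, the 3 brightest and the 2 with the largest change, and the other members are given so that all are accounted for. Of each other list, up to 3 genes with the smallest p over all features were named, and Slbp, Asf1b, Ruvbl2, Daxx, Atrx, Hira and single marker genes of cell types were added after their values were seen. The series' design text gives pools of mice from 2 experiments, and no label ties the replicate numbers to these. With 2 pools a group an exact permutation test of 1 gene cannot go below p = 0.333, and the number of arrays limits the precision. The alternatives were other background correction, scaling, filters, a replicate block and leaving out each pool.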

Additional observations from a re-analysis of the deposited data

How the results depend on the processing

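The count of gene features called was 336, and 149 with cyclic loess, 196 with dim features left out, 2089 outside misread stretches, 1927 when those were also normalized again, 2173 with stretches chosen by within-genotype differences, 1922 with them left out and median scaling, 1697 with them left out and cyclic loess, and 0 with the replicate block or without any one pool in either fit. The split of higher and lower calls was 195 and 141, against 126 and 270 with median scaling and 1705 and 384 outside misread stretches. The alternatives that choose stretches within genotypes, or join the misread rule with median scaling, cyclic loess or a left-out pool, were chosen after seeing the data. Over gene features, the deviations of same-numbered pools from their group means had a correlation of -0.033. That does not settle whether the numbers mark the experiments. With the replicate block and the misread stretches left out 445 features and no core histone gene were called. Replication-dependent genes called numbered 0 over all gene features, also with median scaling or cyclic loess alone. With stretches chosen by within-genotype differences left out they numbered 3. Outside misread stretches they numbered 2, when normalized again 2 and with cyclic loess 2. Outside misread stretches with median scaling they numbered 5, and H2ac15 was no longer among them (adjusted p = 0.213). In that last fit limma estimated 1 common spread for all features. Variant genes called numbered 0 over all gene features, and 1 in each of these 5 settings with stretches left out. The variant median of 0.18 was 0.20 with dim features left out, 0.096 when normalized again and 0.0055 with the gene mean, which averages all features of a gene, and 0.071 to 0.25 (0.075 without db/+ replicate 1) without 1 pool. The replication-dependent median of 0.067 was 0.24 outside misread stretches, -0.0013 with cyclic loess and -0.0069 with the gene mean. It ran from -0.023 to 0.16 without 1 pool, and to 0.28 outside misread stretches. The difference of the medians, -0.11, was 0.061 outside misread stretches, with or without the replicate block, and -0.18 with cyclic loess. It ran from -0.15 to 0.090 without 1 pool, and from -0.098 to 0.13 outside misread stretches. Among the 24 named genes, 13 changed direction under some alternative. H3f3a was -0.023 when normalized again and -0.59 with the gene mean, which takes in its feature in a misread stretch (-1.94). H3f3b was 0.064 with median scaling, 0.046 with cyclic loess and 0.22 with the gene mean. H4c4 was -0.089 with median scaling, -0.081 with cyclic loess, -0.11 when normalized again and -0.59 with the gene mean. Macroh2a1 was -0.19 with the gene mean, which takes in its feature in a misread stretch (-1.62), and Macroh2a2 was 0.12 with median scaling. Without 1 pool the log2 fold change ran from -0.37 to 2.35 for H2ac10, -0.12 to 0.48 for H2az1 (-0.083 without db/db replicate 2), -0.38 to 0.13 for H2bc1, -0.23 to 0.14 for H2bc12 (0.014 without db/db replicate 2), -0.21 to 0.050 for H2bc14, -0.45 to 0.12 for H2bc4, -0.023 to 0.51 for H3c4, -0.14 to 0.25 for H3f3a, -0.10 to 0.071 for H3f3b (0.048 without db/+ replicate 2), -3.72 to 0.030 for H4c14, -0.047 to 0.18 for H4c4 (-0.028 without db/db replicate 1) and -0.14 to 0.075 for Macroh2a2. The cause was not tested.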
